A study of Auricularia auricula-judae with 2 samples.

Results

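Tyrosinase is represented in the fruit body transcriptome of Auricularia auricula-judae, the wood-ear mushroom, by 4 assembled genes of 43428. They were taken as every assembled gene that holds 1 of the listed tyrosinase transcripts, with its isoforms summed, and were chosen for the part tyrosinase plays in the dark pigment of this mushroom. Of these genes, 3 carry the symbol tyr1 (TBIU016709, TBIU058852 and TBIU057804) and 1 the symbol melC2 (TBIU018172), and all 4 are described by their Swiss-Prot match as tyrosinase. The symbol is that of the closest database match and not a curated name in this fungus. The symbol tyr1 alone would not have picked the enzyme, since 4 further assembled genes with that symbol are described as prephenate dehydrogenase, an enzyme of tyrosine synthesis.

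The RNA came from 2 groups of fruit bodies. In the irradiated group the mycelium was given 200 Gy of gamma radiation after 14 days at 25 °C on agar, and in the control group it was not. Both groups then grew on sawdust and rice bran for 30 days at 25 °C and fruited at 18 °C and 90% humidity, so the tissue formed after the exposure. Strain and number of fruit bodies per library are not given in the labels used here.

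Tyrosinase is a copper enzyme that adds a hydroxyl group to phenols such as tyrosine and oxidises the resulting catechols to quinones. The quinones join into melanin, the dark polymer of many fungal cell walls, and they are also the cause of browning in cut mushrooms. In other fungi melanin can also be made from polyketides or with laccases, which are multicopper oxidases that act on phenols.

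With 1 library in each group there is no spread between replicates, and no test between the groups was made. Levels are given as FPKM, fragments per kilobase of transcript at a common library size, which allows genes of different length to be set side by side. The log2 ratio is that of FPKM + 1, irradiated over control. The deposited table also holds a pair of values per transcript that behave as estimated reads divided by a factor for each library, called scaled reads here. They summed to 8872431 for the control and 8404057 for the irradiated library, and they gave 95% intervals that cover counting error only. Genes with 100 or more scaled reads over both libraries are called measured. There were 8249 of them, and all 4 tyrosinase genes were among them. The minimum is on the sum, so a gene can pass it through 1 library alone. The 2-fold counts below hold such genes, in the lists and over all measured genes alike. No markers of the fruit body were fixed for this species, so the tissue label was not checked. In whole fruit bodies, fewer pigment-forming cells and less RNA in each cell cannot be told apart.

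One tyr1 gene held most of the tyrosinase RNA in both libraries. TBIU016709 had 161 FPKM in the control library, with a counting interval of 155 to 166, and 141 FPKM in the irradiated library, with an interval of 136 to 146. This was 82.4% of the summed FPKM of the 4 genes in the control and 83.4% in the irradiated library. Its level, averaged over the libraries, was above that of 85.5% of measured genes, whose median was 36.9 FPKM. It rested on 5900 scaled reads, the deepest coverage of the 4 genes.

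The other 3 genes were expressed at a low level. TBIU058852 (tyr1) had 14.7 FPKM without irradiation and 9.14 FPKM after it. TBIU057804 (tyr1) had 10.1 FPKM without irradiation and 7.36 FPKM after it. TBIU018172 (melC2) had 9.61 FPKM without irradiation and 11.5 FPKM after it. In the control library TBIU016709 was 11.0 to 16.7 times as abundant per length as these genes, and in the irradiated library 12.3 to 19.1 times. Averaged over the libraries, TBIU058852, TBIU057804 and TBIU018172 lay above 17.5%, 10.6% and 14.8% of measured genes.

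**Figure D1:**
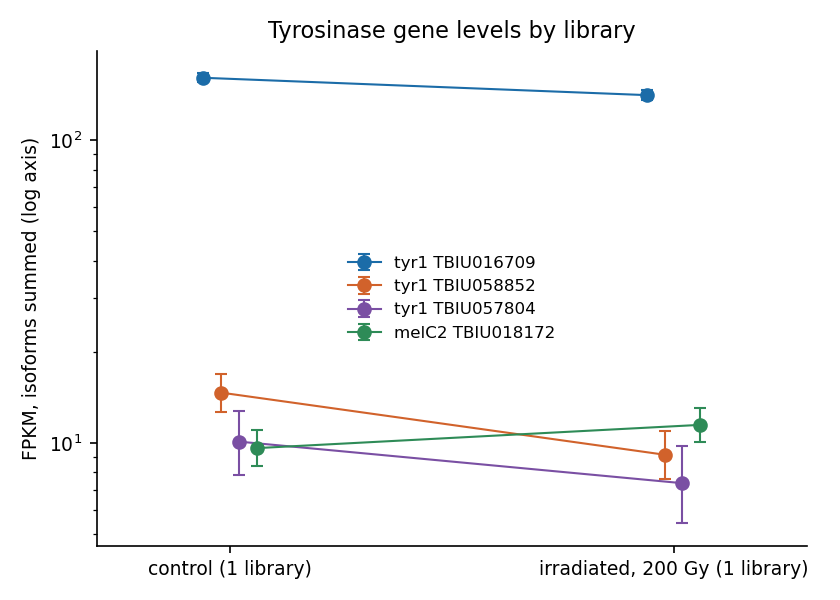
FPKM of the 4 tyrosinase genes (isoforms summed, log axis) in the control library and in the library from fruit bodies of mycelium given 200 Gy, with bars for the 95% Poisson interval of counting error. TBIU016709 stands at 161 and 141 FPKM, and the other 3 genes between 7.36 and 14.7 FPKM.

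The order of the 3 minor genes was not the same in the libraries. In the control, TBIU058852 came first, with a counting interval of 12.7 to 16.9 FPKM that met that of TBIU057804 (7.86 to 12.8 FPKM) and lay above that of melC2 (8.36 to 11.0 FPKM). In the irradiated library melC2 came first, with an interval of 10.1 to 13.0 FPKM, which overlapped that of TBIU058852 (7.57 to 10.95 FPKM) and lay above that of TBIU057804 (5.43 to 9.76 FPKM). The intervals of melC2 and TBIU057804 overlapped in the control, and those of TBIU057804 and TBIU058852 in both libraries. Overlap of such intervals does not settle whether the levels differ. Intervals for the differences between levels were not computed, so the ranks of the overlapping genes are not judged here.

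None of the 4 genes was 2-fold apart between the libraries. Over measured genes, 9.32% lay 2-fold or more above the control and 8.68% 2-fold or more below it, 18.0% in all, so 0 of 4 lies close to what this background gives. With the median log2 ratio of measured genes (0.10) taken off, the count was 598 genes above and 853 below, against 769 and 716 without this step, and still none of the 4. In the authors' deposited table, the p-values of the 7 tyrosinase transcripts ran from 0.641 to 0.962, and the q-value was 1 for all 57717 transcripts.

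All 3 tyr1 genes had lower FPKM in the irradiated library and melC2 had higher FPKM. A log2 ratio below 0 was found for 44.1% of measured genes. TBIU016709 had a log2 ratio of -0.19, a difference of -12.3%. Its scaled reads, 3226 in the control and 2674 in the irradiated library, gave -0.27 on the log2 scale and a counting interval from -0.35 to -0.20. The FPKM ratio lay just outside that interval. The median log2 ratio of measured genes was 0.10 in FPKM and 0.04 in scaled reads. Relative to the FPKM median, TBIU016709 stood at -0.29.

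TBIU058852 was the tyrosinase gene furthest from the control. Its log2 ratio was -0.63, a difference of -35.2%, and 310.6 scaled reads gave a counting interval from -1.05 to -0.37. Of measured genes, 16.4% had a lower log2 ratio. TBIU057804 had a log2 ratio of -0.41, and its interval of -1.09 to 0.03 covered 0 at 117.5 scaled reads. For melC2 the log2 ratio was 0.23 and the interval of -0.09 to 0.45 also covered 0. The counting intervals left out 0 for 2 of the 4 genes, both below the control. Over measured genes the interval left out 0 for 73.5%, below the control for 34.8% and above it for 38.6%, so 2 of 4 is no more than this background. These intervals leave out the differences between fruit bodies and between library preparations, which 1 library per group cannot show.

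**Figure D2:**
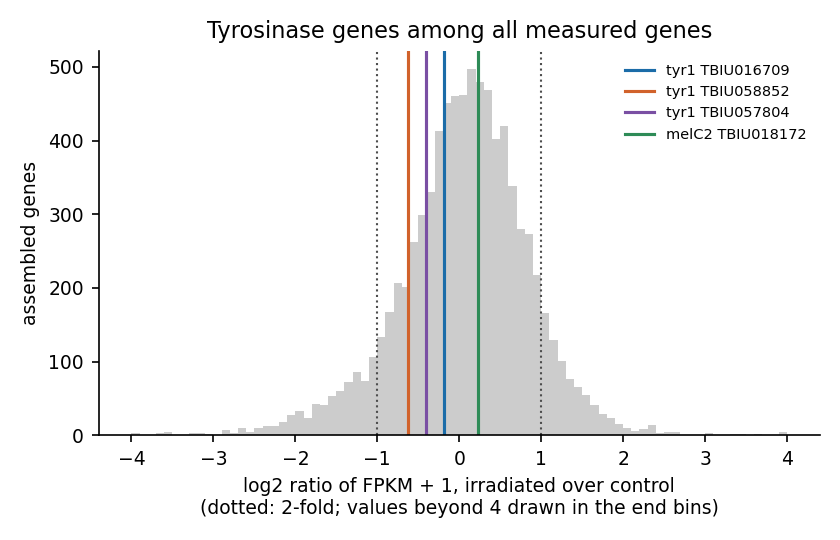
Log2 ratios of FPKM + 1, irradiated over control, of 8249 measured genes as a histogram, with the 4 tyrosinase genes as coloured lines and 2-fold as dotted lines. All 4 lines, from -0.63 to 0.23, stand within 2-fold. The lowest, TBIU058852, has 16.4% of measured genes below it.

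The genes were also compared with each other, as the difference between their log2 ratios of scaled reads. Over 6 pairs, 4 intervals of counting error left out 0, while 72.5% of all pairs of measured genes had such an interval, so a difference of this kind is common and not particular to tyrosinase. The largest difference was that of TBIU058852 and melC2, which were -0.89 apart with an interval of -1.33 to -0.45. TBIU057804 and melC2 were -0.71 apart, with an interval of -1.33 to -0.08. The log2 ratio of TBIU016709 was below that of melC2 by a difference of -0.45 (interval -0.73 to -0.17), and above that of TBIU058852 by 0.44 (interval 0.09 to 0.79). Which of the less abundant tyr1 genes stood lower was not detectable at this depth (difference -0.18, interval -0.84 to 0.48). The intervals are not adjusted for the number of pairs.

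Summed over the 4 genes, tyrosinase RNA stood at 195.2 FPKM without irradiation and 168.9 FPKM after it, a log2 ratio of -0.21. The 3 tyr1 genes alone had 185.6 and 157.4 FPKM, a log2 ratio of -0.24. Both sums are set mainly by TBIU016709.

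The isoforms of the genes were assembled from the same reads and share sequence, so the split between them is an estimate. Of the 7 tyrosinase isoforms, 6 had a lower FPKM in the irradiated library, among them all 5 isoforms of tyr1, while 44.9% of transcripts with 100 or more scaled reads had a log2 ratio below 0. The isoforms come from 4 genes, of which 3 were lower, so they are not 7 separate cases. The lower isoform of melC2 (TBIU018171) had a log2 ratio of -0.03 and a counting interval of -0.59 to 0.36. The main isoform of the abundant gene (TBIU016709) had 139.1 FPKM without irradiation and 128.9 FPKM after it, a log2 ratio of -0.11. Its second isoform (TBIU016708) had 21.7 and 12 FPKM (log2 ratio -0.80). This second isoform held 13.8% of the scaled reads of its gene in the control, with a Clopper-Pearson interval of 12.7% to 15.1%, and 8.8% in the irradiated library, with an interval of 7.7% to 9.9%. The intervals do not overlap, as was also the case for the second isoform in 44.9% of 4154 measured genes with 2 or more isoforms. The gene's total in scaled reads was 1.21-fold higher in the control.

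The isoforms of the other genes had shares that overlapped. In TBIU058852 the isoform of the same ID had 7.07 and 5.04 FPKM, and its second isoform (TBIU058853) had 7.59 and 4.10 FPKM. The second isoform held 40.9% of the gene's scaled reads in the control (interval 33.9% to 48.2%) and 34.4% in the irradiated library (interval 25.4% to 43.2%). In melC2 the main isoform (TBIU018172) had 6.0 and 7.95 FPKM and the other (TBIU018171) had 3.61 and 3.52 FPKM. The higher FPKM of melC2 in the irradiated library was seen in its main isoform, whose counting interval of -0.01 to 0.67 covered 0. This isoform held 62.7% of the gene in the control (interval 55.8% to 69.3%) and 69.6% in the irradiated library (interval 63.3% to 75.3%).

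**Figure D3:**
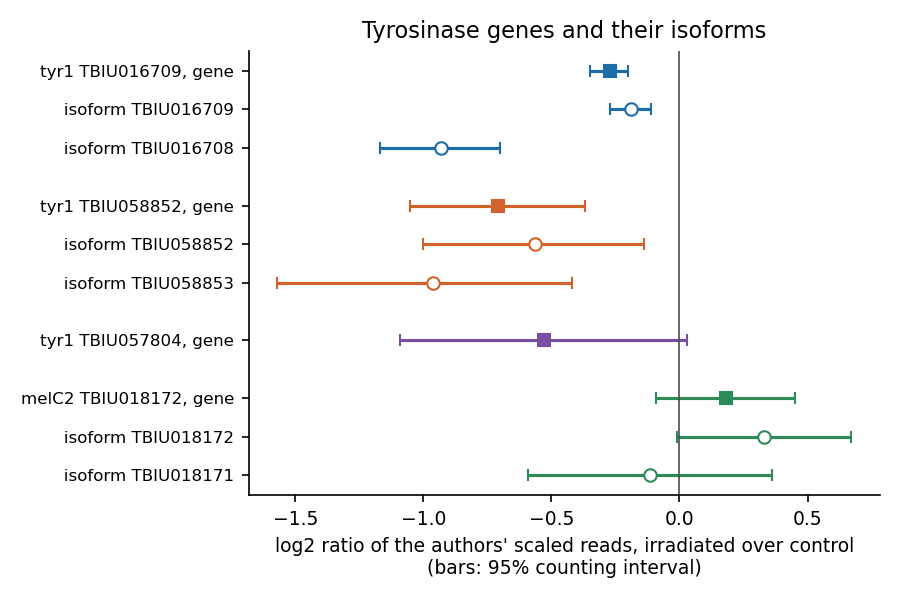
Log2 ratios of the authors' scaled reads, irradiated over control, of the 4 tyrosinase genes (squares) and of the isoforms of the 3 genes that have more than 1 (open circles), with 95% intervals of counting error. The tyr1 genes and isoforms all stand below 0, with the interval of TBIU057804 reaching 0.03, and the melC2 intervals cover 0.

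The assembly bears on how separate these genes are. The ratio of scaled reads to FPKM gives an effective transcript length, up to a factor common to all transcripts. It came to 2253 and 2315 bases for the isoforms of TBIU016709 and 2498 and 2470 bases for those of melC2, against a median of 1173 bases over measured genes. The isoforms of TBIU058852 came to 1817 and 1172 bases. TBIU057804 came to 774 bases, the shortest of the set. Its assembly name shares the first part with that of TBIU016709 and differs in the component number, so the names do not place both in 1 read cluster. No other gene has that first part, and those of TBIU058852 and melC2 are shared with no gene. A short transcript can be a fragment, and whether TBIU057804 is a gene of its own or a piece of a longer one cannot be told apart from the deposited values. The summed values count it in either case, and it held 5.2% of the tyrosinase FPKM in the control and 4.4% in the irradiated library.

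Beyond the 4 genes, the descriptions tyrosinase, catechol oxidase and polyphenol oxidase matched 2 further assembled genes, both polyphenol oxidase (PPO1), an enzyme of the same family. TBIU044165 had 4.95 FPKM in the control and was listed at 0 in the irradiated library, and TBIU040382 was listed at 0 in the control and had 3.02 FPKM in the irradiated library. They rested on 2.1 and 1.9 scaled reads, so neither level could be compared. By description, the 4 tyrosinase genes were therefore all the measured genes found for this enzyme family. Only 4084 of the 8249 measured genes were described, so others could have been missed.

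The multicopper oxidases, which also oxidise phenols, had a wider range of ratios than tyrosinase. Of 13 such genes 6 were measured, of which 3 lay 2-fold or more above the control and 1 below it (9.32% and 8.68% of all measured genes). Their median log2 ratio was 0.68 against 0.10 over measured genes, but no ratio fell between 0.15 and 1.22. Ratios below 0 were found for 2 of the 6, against 44.1% of all measured genes. The most abundant, laccase-2 (lcc2, TBIU046262), had 72.0 FPKM without irradiation and 406 FPKM after it. Other measured genes with the symbol lcc2 were TBIU017636 and TBIU016449, with log2 ratios of 1.22 and -0.26. The highest ratio was that of bilirubin oxidase (BLRO_MYRVE, TBIU011885; log2 ratio 4.48) and the lowest that of laccase-1 (yA, TBIU006176; -1.49). Summed tyrosinase FPKM was 1.17 times the summed multicopper oxidase FPKM in the control (195.2 against 166.5) and 0.26 times in the irradiated library (168.9 against 649.8).

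In scaled reads the summed multicopper oxidases differed from the summed tyrosinases by 2.17 on the log2 scale (counting interval from 2.08 to 2.25). The genes lcc2 TBIU046262 and bilirubin oxidase TBIU011885 carried most of it. Without lcc2 TBIU046262 it was 1.26 (interval 1.16 to 1.37), and tyrosinase was 2.07 times the remaining multicopper oxidases in the control and 0.69 times in the irradiated library. Without bilirubin oxidase TBIU011885 as well it was 0.53 (interval 0.42 to 0.64), and tyrosinase was then the more abundant in both libraries, at 2.16 and 1.29 times. These subsets were chosen after the values were seen.

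Genes that make tyrosine, the substrate of tyrosinase, were 2-fold apart about as often as measured genes in general. Of 42 genes on the list for aromatic amino acid synthesis, 10 were measured, with 1 lying 2-fold or more above the control and 1 below it, close to the 9.32% and 8.68% of all measured genes, and a median log2 ratio of 0.30 against 0.10. The most abundant and the highest was the tyrosine-inhibited aldolase aro4 (TBIU010069), which opens the shikimate pathway, at 301.6 FPKM without irradiation and 689 FPKM after it. The lowest was a chorismate mutase (CM3, TBIU012967), which leads chorismate towards phenylalanine and tyrosine, at 110.7 and 36.7 FPKM (log2 ratio -1.57). Prephenate dehydrogenase (tyr1, TBIU017494), which takes the next step to tyrosine, had 35.5 and 71.5 FPKM (log2 ratio 0.99).

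The 4 isoforms of that prephenate dehydrogenase gene differed more than those of tyrosinase. The main isoform (TBIU017494) had 25.5 and 31.7 FPKM. TBIU017493 had 4.19 and 27.5 FPKM, TBIU017496 was listed at 0 in the control and at 12.3 FPKM in the irradiated library, and TBIU017495 had 5.80 FPKM in the control and was listed at 0 in the irradiated library. On its main isoform alone the log2 ratio of the gene was 0.30. The list's text pattern also took in aminodeoxychorismate synthase (ABZ1, TBIU054671, log2 ratio 0.20), which draws chorismate off to aminobenzoate.

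Genes that use up tyrosine and phenylalanine had a median log2 ratio of 0.64, against 0.10 over measured genes. Their ratios were above 0 for 7 and below 0 for 5, against 55.8% and 44.1% of all measured genes. The median lies between the DOPA dioxygenase genes, at 0.61 and 0.68, and no ratio fell between -0.34 and 0.61. Of 26, 12 were measured, and 4 of these lay 2-fold or more above the control and none below it (9.32% and 8.68% of all measured genes). With the median taken off there were 3 above and 1 below, and likewise in scaled reads. The highest was maleylacetoacetate isomerase (mai, TBIU011357) of the homogentisate route of tyrosine breakdown, at 1.05 and 21.15 FPKM (log2 ratio 3.43). This gene rested on 149.8 scaled reads over both libraries, few of them from the control, so it passed the minimum through the irradiated library. Its counting interval was wide, at 2.89 to 4.9, so the size of its ratio is uncertain. A gene described as tyrosine decarboxylase (ELI5, TBIU010253) had 6.59 and 37.0 FPKM (log2 ratio 2.32), and homogentisate dioxygenase (HGD, TBIU025992) had 5.98 and 13.7 FPKM (log2 ratio 1.07, 0.97 with the median taken off and 0.28 on its main isoform alone, with a counting interval of 0.45 to 1.01).

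Phenylalanine ammonia-lyases, which remove the amino group of phenylalanine, differed among themselves. The genes TBIU024299, TBIU015350 and TBIU001460 had log2 ratios of -0.80, -0.71 and -0.34, and TBIU009598 had 1.31, or 0.96 on its main isoform alone. TBIU024299 is described as a phenylalanine/tyrosine ammonia-lyase. The counting interval of TBIU001460, -0.9 to 0.06, covered 0. The lowest of the list was a gene described as L-tyrosine decarboxylase (mfnA, TBIU025047) at -0.95, which passed 2-fold once the median was taken off. The most abundant was a DOPA dioxygenase-like gene (SPBC1709.16c, TBIU004506), whose enzyme family opens the ring of DOPA, a catechol that tyrosinase also uses. It had 156.5 and 251.4 FPKM (log2 ratio 0.68). A second such gene (DODA, TBIU004603) had a log2 ratio of 0.61.

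Copper supply genes, which provide the metal of tyrosinase and laccase, were within 2-fold where measured. Of 36, 4 were measured, with a median log2 ratio of -0.17 against 0.10 over measured genes. Of all measured genes 18.0% were 2-fold apart, so 4 of 4 within 2-fold lies close to this background. The copper regulator CRF1 (TBIU015650), the most abundant, had 142.2 and 106.4 FPKM (log2 ratio -0.42, the lowest, and -0.06 on its main isoform alone). The copper pumps described as ATP7A (TBIU022145 and TBIU059592), which in animals load copper into secreted enzymes, had log2 ratios of -0.05 and 0.12, the latter the highest, and 0.72 on its main isoform alone. The copper importer ctr4 (TBIU022219) had 14.5 and 11.8 FPKM (log2 ratio -0.28, and 0.05 on the main of its 17 isoforms alone).

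The text pattern for other routes to melanin matched 5 genes, of which 2 were measured, both of aminobenzoate synthesis. Whether these take part in melanin synthesis was not tested. They were ABZ1 (TBIU054671, 33.65 and 38.7 FPKM) and the putative aminodeoxychorismate lyase SPBC19G7.02 (TBIU008909, 19.98 and 39.2 FPKM, log2 ratio 0.94). No measured gene was described as a scytalone dehydratase, a hydroxynaphthalene reductase or a polyketide synthase, the enzymes of the polyketide route.

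**Figure D4:**
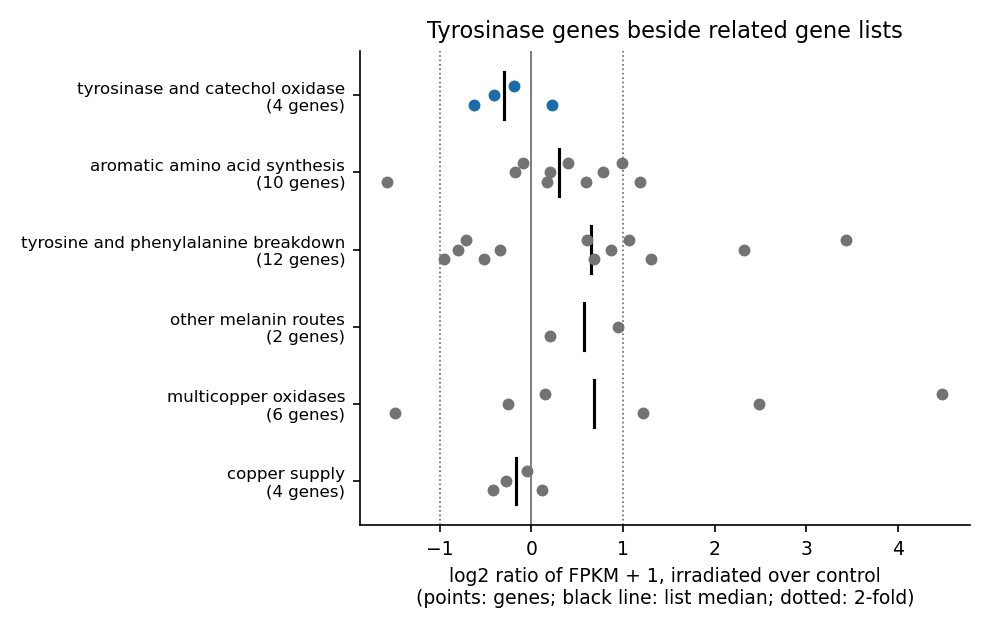
Log2 ratios of FPKM + 1, irradiated over control, of measured genes in 6 lists, with 1 point per gene, a black line at each list's median and dotted lines at 2-fold. The 4 tyrosinase genes (blue, -0.63 to 0.23) and the 4 copper supply genes stand within 2-fold, while the multicopper oxidases reach from -1.49 to 4.48.

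The genes closest to each tyrosinase gene in level were found by the distance between log2(FPKM + 1) values over the 2 libraries, among 4084 described measured genes. TBIU016709 was closest to RVS167 (TBIU006947, distance 0.00742, 160.0 and 140.8 FPKM), pld1 (TBIU022001, 0.0208) and GND2 (TBIU048250, 0.0465), and 15 genes lay within 0.1. TBIU058852 was closest to LIMK2 (TBIU011098, 0.0323), the single gene within 0.1, then to pip (TBIU006228, 0.127) and betA (TBIU025347, 0.14). For TBIU057804 these were ilvD (TBIU015307, 0.0443), abnA (TBIU020359, 0.0518) and LYS_CHASP (TBIU020912, 0.0606). For melC2 they were POSPLDRAFT_134690 (TBIU013268, 0.0514), SPBC2G2.13c (TBIU023287, 0.0536) and SPAC1F7.11c (TBIU007518, 0.0548). With 2 libraries such closeness says that the levels are alike and no more.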

How the data were processed

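The authors deposited 1 table of 57717 assembled transcripts with FPKM per library, per the file headers. The aligner, assembler and quantification method were not given in the sources used here. Per the file headers, the table also gives a log2 fold change, a p-value and a q-value from an unnamed test by the authors. The log2 fold change is, within rounding where both are above 0, the log2 ratio of a further pair of deposited values of unnamed unit (scaled reads), which name no library and were used as the authors' comparison of control and irradiated, for depth and counting intervals. Their log2 ratio and that of FPKM differed by a median of 0.07 over measured genes. Libraries were assigned by the sample descriptions repeated in the column headers.

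FPKM and scaled reads were summed over isoforms, and a gene took the description of its isoform with the most scaled reads. Log2 ratios used a pseudocount of 1, a minimum of 100 scaled reads and a 2-fold limit. Intervals are exact Clopper-Pearson (ratios, shares) or Poisson (levels) at 95% on rounded scaled reads. Differences between ratios used odds-ratio intervals, conditional for pairs of genes and normal-approximation for summed genes and for all pairs of measured genes. Members, the 6 lists (text patterns on descriptions) and the naming rule were chosen with earlier results of these data known. Named were all tyrosinase and polyphenol oxidase genes, measured list genes (always the highest, lowest and most abundant), and the 3 closest genes. Counting was tested on data simulated with Poisson error alone, which leaves out the spread between real libraries and the split between isoforms. Python 3.11.15, pandas 2.3.3 and scipy 1.17.1 were used.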

Additional observations from a re-analysis of the deposited data

How the results depend on the processing

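Alternatives were pseudocounts of 0.1 and 5, median-centred ratios, scaled reads, the main isoform alone, minimums of 20 and none, and, chosen after seeing the data, list membership by any isoform. Of 19 alternative values for the tyrosinase genes, 16 moved by less than the counting interval's half-width and none changed sign or reached 2-fold. The others were those of TBIU016709, at -0.29 median-centred, -0.27 in scaled reads and -0.11 on its main isoform. Genes at least 2-fold higher numbered 1418 with a minimum of 20, 14179 with none and 503 with a pseudocount of 5, and genes at least 2-fold lower 1473 and 11861 with those minimums. Of 72 list values, 69 stayed within 1.5 times (counts) or within the half-width of the median's 95% order-statistic interval (medians). The other 3 were the count of tyrosine and phenylalanine breakdown genes at least 2-fold lower, at 1 in place of 0 with a minimum of 20, median-centred and in scaled reads. Those at least 2-fold higher numbered 5, 3 and 3 there, in place of 4. No paired analysis was possible because each group has 1 library, and no replicate could be left out. The multicopper oxidase difference of 2.17 was 1.26 and 0.53 without 1 and 2 genes, as given above. Depth limits TBIU057804, with 117.5 scaled reads.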
